A study of Mus musculus with 6 samples.

Results

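The lysosomal genes described here are 49 listed by name for their roles in the organelle, out of 55401 gene identifiers in the deposited count table. They comprise 9 proteases, 7 glycosidases of glycoproteins and glycolipids, 6 enzymes of glycosaminoglycan breakdown, 8 lipid hydrolases and lipid carriers, 8 membrane proteins, progranulin, and 10 subunits of the proton pump V-ATPase. The rule is a list of names and uses no measured value, and all 49 passed the filter on low counts. The libraries hold messenger RNA of embryonic stem (ES) cells of the mouse, in 2 groups of 3 Petri dishes, with 1 library per dish. In 1 group the libraries are labelled KO and the cells had received doxycycline, an antibiotic widely used to switch engineered genes on or off, for 7 days. In the other the cells are labelled as expressing 3XHA-Taf13, a TAF13 protein with a triple HA tag, and were grown untreated for the same 7 days. TAF13 is a subunit of TFIID, the complex that binds promoters and helps to place RNA polymerase II. The labels do not say what genotype the 2 groups share, how many clones they come from or what doxycycline does in these cells, and the KO label and doxycycline cannot be told apart.

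Lysosomes are acidic compartments in which proteins, glycans and lipids are taken apart by hydrolases and the products are exported by carriers in the limiting membrane. Their lumen is acidified by the V-ATPase, in which a V1 sector that splits ATP drives a V0 sector that passes protons across the membrane. Many lysosomal genes carry a CACGTG E-box close to their start site, inside the so-called CLEAR element bound by the transcription factors TFEB, TFE3 and MITF. In mouse development, the primitive and visceral endoderm are known for heavy endocytic uptake and abundant lysosomes.

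A promoter from RefSeq's table (build GRCm38.p6, 250 bases before to 50 after the start) was used for 40 of the 49 genes. CACGTG, which reads the same on both strands, stood in the window of 14 of these 40 genes (35%), against 8.09% of all 27025 genes with an entry. The extended form TCACGTG, searched on both strands and always overlapping the E-box, stood in 13 of the 40 (32.5%), against 4.29% of all genes. The full palindrome TCACGTGA stood in 6 of the 40, namely Atp6v0d1, Atp6v1a, Ctsa, Ctsd, Gla and Mcoln1 (15%, against 1.12% of all genes). In Mcoln1 it lies at the E-box at position −45, not at the one at −71 that is printed below. The CLEAR consensus core, which adds a G before and a C after that palindrome, stood in 0 of the 40, against 0.37% of all genes. The sequences are shown here because the lysosomal genes are classically grouped by this motif, and each is followed below by how its gene behaved. Capitals mark CACGTG, and all are written 5′ to 3′ on the strand of the gene. The 250 bases before the start are given for Lamp1 (chr8:13158911-13159160, plus strand), whose 4 E-boxes were more than in any other listed gene, for Ctsd (chr7:142387828-142388077, minus strand), which was higher with the KO label, and for Glb1 (chr9:114400828-114401077, plus strand), which was lower.
Lamp1: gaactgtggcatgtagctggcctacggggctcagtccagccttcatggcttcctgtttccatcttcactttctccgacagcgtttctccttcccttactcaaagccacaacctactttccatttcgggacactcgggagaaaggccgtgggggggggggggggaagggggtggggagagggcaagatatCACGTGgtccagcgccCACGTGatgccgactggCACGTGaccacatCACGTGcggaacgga
Ctsd: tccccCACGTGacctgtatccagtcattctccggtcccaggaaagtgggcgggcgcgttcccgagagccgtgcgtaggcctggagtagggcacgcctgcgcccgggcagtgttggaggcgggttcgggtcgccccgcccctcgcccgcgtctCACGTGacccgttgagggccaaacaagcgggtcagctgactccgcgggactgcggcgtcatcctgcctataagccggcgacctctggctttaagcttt
Glb1: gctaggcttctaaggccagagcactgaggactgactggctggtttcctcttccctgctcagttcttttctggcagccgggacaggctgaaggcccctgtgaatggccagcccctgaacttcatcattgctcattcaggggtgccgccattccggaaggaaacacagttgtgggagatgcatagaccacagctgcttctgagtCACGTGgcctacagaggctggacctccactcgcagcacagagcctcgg

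For the other 11 genes with an E-box, the bases around the one farthest upstream are given, so that the letters next to the core can be compared. Gaa, at chr11:119267806-119267845, plus strand, was lower with the KO label, and the remaining 10 did not pass the test in either direction. Those 10 are Mcoln1 (chr8:3500431-3500470, plus strand), Gla (chrX:134601210-134601249, minus strand), Ctsa (chr2:164833744-164833783, plus strand), Ctsl (chr13:64370734-64370770, minus strand), Arsa (chr15:89477418-89477457, minus strand), Naglu (chr11:101070004-101070043, plus strand), Sgsh (chr11:119355517-119355556, minus strand), Atp6v1a (chr16:44139368-44139407, minus strand), Atp6v0b (chr4:117887343-117887382, minus strand) and Atp6v0d1 (chr8:105566045-105566084, minus strand).
Gaa: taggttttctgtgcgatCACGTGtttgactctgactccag
Mcoln1: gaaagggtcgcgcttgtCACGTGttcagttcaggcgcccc
Gla: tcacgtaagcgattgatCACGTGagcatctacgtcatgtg
Ctsa: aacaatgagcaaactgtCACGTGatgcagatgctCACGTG
Ctsl: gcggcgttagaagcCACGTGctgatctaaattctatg
Arsa: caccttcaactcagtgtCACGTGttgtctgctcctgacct
Naglu: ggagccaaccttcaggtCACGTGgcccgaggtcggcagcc
Sgsh: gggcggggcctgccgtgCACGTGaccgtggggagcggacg
Atp6v1a: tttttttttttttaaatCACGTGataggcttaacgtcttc
Atp6v0b: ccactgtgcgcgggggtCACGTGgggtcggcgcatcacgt
Atp6v0d1: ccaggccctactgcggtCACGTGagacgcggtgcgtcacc
The orientation of the windows was checked by finding their transcribed bases in a transcript of the gene, except for Atp6v0d1, where it was not found. A match is a description of these letters and says nothing of binding in these cells.

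The 6 libraries held between 31219328 and 50328010 counts, so that 3 counts in 1 library correspond to between 0.0581 and 0.0961 CPM, counts scaled to the same library size. A total of 17778 genes were tested with edgeR's quasi-likelihood test, and a gene was called at a Benjamini-Hochberg adjusted p under 0.05 over all of them. Taf13 itself stood at 13.2 ± 1.02 CPM with the KO label and 10.05 ± 2.21 CPM in expressing cells (SD, n = 3 each), and did not pass (log2 fold change 0.40, adjusted p = 0.0578). The counts therefore do not check the KO label, and every direction below rests on it. Expressing replicate 1 stood apart: its counts differed from those of expressing replicates 2 and 3 with a chi-square per degree of freedom of 33.9 and 27.5, against 3.27 to 5.67 for other pairs within a group. Its reads had a mean GC content of 48.2%, against 47.3% to 47.5% in the other libraries, and lost or gained calls of single lysosomal genes without it are given beside them. All 8 ES cell markers were detected in every library and were lower with the KO label, with summed levels of 1635 to 1667 CPM with the KO label, against 2674 to 2926 CPM in expressing cells, and 6 to 7 were called when 1 library was left out. All 12 primitive endoderm markers were higher, with summed levels of 1138 to 1171 CPM with the KO label and 448 to 495 CPM in expressing cells. Of 8 fibroblast markers 2 were higher and 1 lower, with sums of 94.2, 178 and 95.4 CPM with the KO label and 105 to 133 CPM in expressing cells. KO replicate 2 stood apart in these fibroblast markers, and without it 2 were higher and 3 lower, with the median log2 fold change turning to −0.30, against 0.12 with it. Of 8 macrophage markers 5 were tested and 2 were higher (1 to 3 when 1 library was left out), with sums of 13.5 to 16.4 CPM with the KO label and 9.50 to 10.4 CPM in expressing cells. Cd68, a lysosomal protein itself, made up most of those sums, and the defining receptor genes Csf1r and Adgre1 stayed near the floor (Csf1r 0.0788 and Adgre1 0.1001 CPM with the KO label, 0.0865 and 0.00912 CPM in expressing cells). The part of these cell type markers in the lysosomal results was not tested. In such bulk samples, fewer cells of a type and less RNA per cell cannot be told apart.

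Lysosomal genes went both ways and mostly by little. With the KO label 12 of the 49 were higher (24.5%) and 7 were lower (14.3%), while 30 did not pass the test. Among all tested genes 19.2% were higher and 20.8% were lower, so in this fit the lysosomal shares lay near the background. Among genes of at least 1 CPM in 3 libraries the background was 21.5% and 23.4%. The median log2 fold change of the 49 genes was 0.06, against −0.01 over all tested genes. The median size of the change, without its sign, was 0.17 on the log2 scale. It was 0.29 over all tested genes and 0.25 over those with a mean of at least 1 CPM. The 49 genes were also more abundant, with a median of 49.04 CPM with the KO label and 51.3 CPM in expressing cells, against 12.4 and 12.0 CPM over all tested genes, and the part of abundance in the size of the changes was not tested. For 46 of the 49 the 95% interval of the fold change stayed within 2-fold in either direction. It did so for 12987 of all 17778 tested genes, and for 12078 of the 14075 with a mean of at least 1 CPM. Of the lysosomal genes, Ctsh and Napsa alone were called and changed by 2-fold or more, as 5.22% of all tested genes did upward and 3.64% downward. The 3 libraries labelled KO all lay above the 3 expressing libraries for 19 lysosomal genes (38.8%) and all below for 10 (20.4%), against 26.4% and 27.1% of all tested genes, or 53.5% in either direction. Without expressing replicate 1, 21 were higher (42.9%) and 10 lower (20.4%), against 26.2% and 24.7% of the genes then tested. When libraries were scaled by their totals alone, 19 were higher (38.8%) and 5 lower (10.2%), against 25.1% and 14.5% of all genes, and the median over all tested genes moved to 0.08. With the trend of the changes on GC content removed, 20 were higher (40.8%) and 11 lower (22.4%), against 25.1% and 27.7% of all genes. Without KO replicate 1 or KO replicate 2, 8 were higher and 5 lower. No background share is set beside these 2 fits, so their counts are not read as a result about the lysosomal genes. In the first 3 of these alternatives the higher share thus stood above the background, and the lower share below it.

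**Figure D1:**
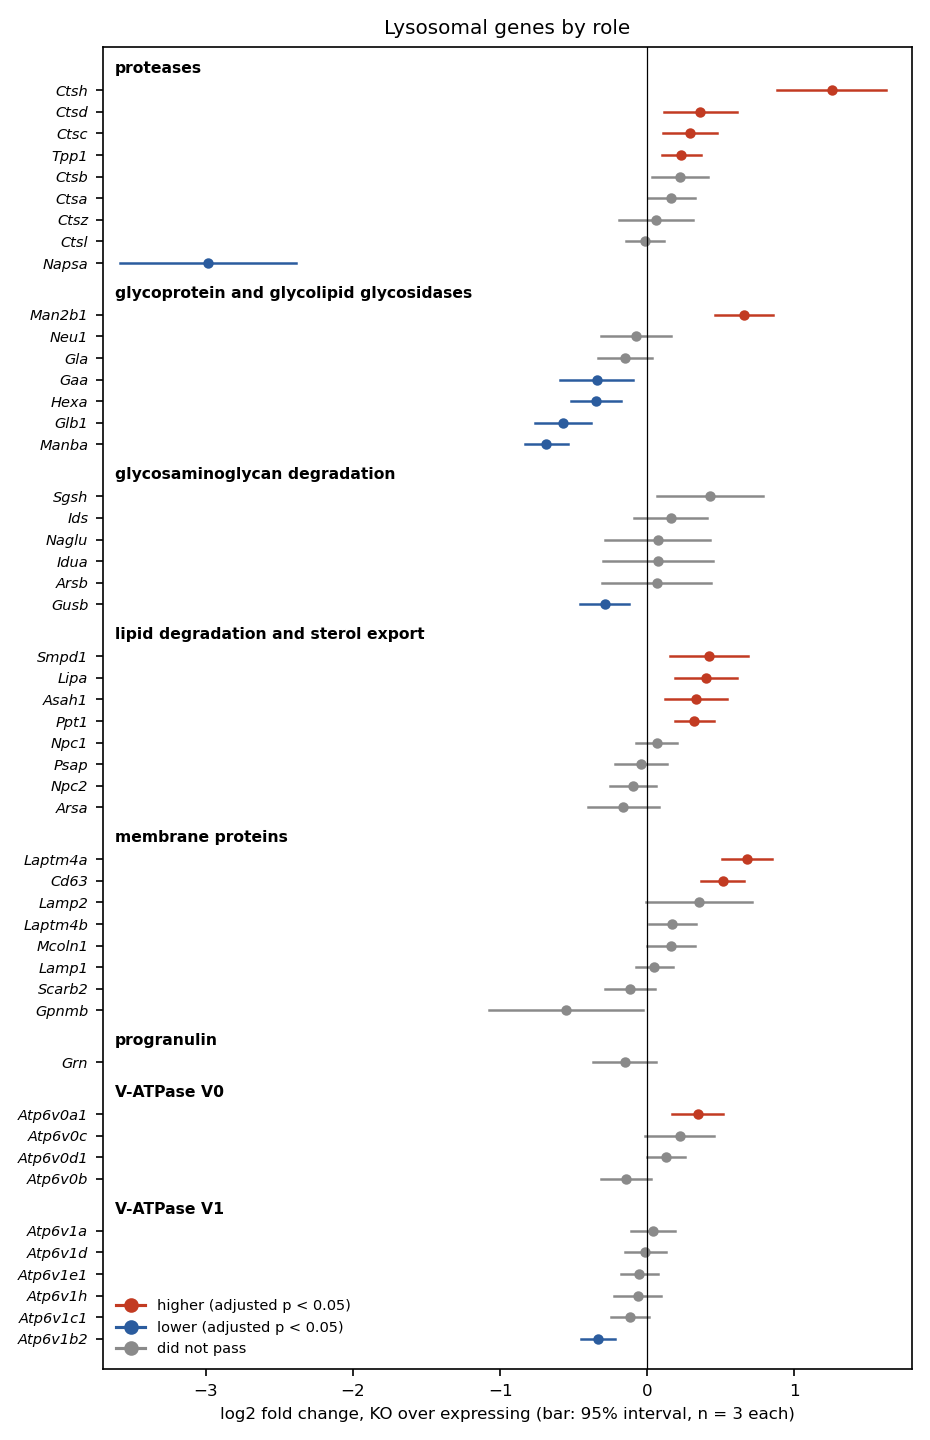
Log2 fold change (horizontal axis, libraries labelled KO over 3XHA-Taf13 expressing libraries, n = 3 each) of all 49 lysosomal genes, ordered by role down the page, with bars for the 95% interval and colours for higher, lower and not passed. Most genes lie close to 0, Ctsh (1.26) lies far to the right, Napsa (−2.99) far to the left, and the glycosidases hold 4 of the 7 genes that were lower.

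Among the 9 proteases 4 were higher, 1 was lower and 4 did not pass, with a median log2 fold change of 0.22. The protease with the greatest increase was Ctsh, cathepsin H, a cysteine protease that trims proteins from the amino end (ENSMUSG00000032359, chr9:90054152-90076089, mm10). Ctsh stood at 4.53, 5.61 and 4.55 CPM in the libraries labelled KO, against 2.47, 1.701 and 2.05 CPM in the 3XHA-Taf13 expressing libraries. The groups did not overlap, and every library labelled KO was above the highest expressing library. Its mean was 4.899 ± 0.618 CPM with the KO label and 2.07 ± 0.384 CPM in expressing cells (SD, n = 3 each), and its log2 fold change was 1.26 ± 0.165 (SE, adjusted p = 3.52e-04), or 2.39-fold. Napsa, napsin A, an aspartic protease best known from lung and kidney, did the opposite (ENSMUSG00000002204, chr7:44572380-44586862). Napsa stood at 0.287, 0.377 and 0.504 CPM in the libraries labelled KO, against 3.81, 2.36 and 3.48 CPM in the 3XHA-Taf13 expressing libraries. These values rest on 10, 17 and 26 reads with the KO label, against 119, 104 and 127 reads in expressing cells. The groups lay far apart, and the log2 fold change of Napsa was −2.99 ± 0.266 (SE, adjusted p = 4.00e-05), or 0.126-fold. Both genes were lowly expressed in either group, far below the median lysosomal gene.

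Another 3 proteases, all more abundant, were higher by smaller amounts. Ctsd, cathepsin D, the main aspartic protease of lysosomes, had 116, 119 and 105 CPM in the libraries labelled KO, against 104, 74.6 and 86.8 CPM in the 3XHA-Taf13 expressing libraries. Its lowest library labelled KO was just above its highest expressing library, and its log2 fold change was 0.36 ± 0.11 (SE, adjusted p = 0.0273). The call of Ctsd was lost without KO replicate 1 (adjusted p = 0.0892), KO replicate 2 (0.0983), expressing replicate 2 (0.0598) or expressing replicate 3 (0.0839). Ctsc, the dipeptidyl peptidase that activates serine proteases of immune cells, had 25.2, 23.02 and 22.8 CPM with the KO label, against 18.4, 20.7 and 18.8 CPM in expressing cells. The groups of Ctsc did not overlap (log2 fold change 0.29 ± 0.0813 SE, adjusted p = 0.018), and the call was lost without KO replicate 1 (adjusted p = 0.0857) or expressing replicate 3 (0.0611). Tpp1, the tripeptidyl peptidase deficient in a childhood ceroid lipofuscinosis, had 90.6, 98.7 and 95.1 CPM with the KO label, against 80.9, 82.2 and 79.1 CPM in expressing cells. Tpp1 also showed no overlap (log2 fold change 0.23 ± 0.0589 SE, adjusted p = 0.0119), and its call was lost without KO replicate 2 (adjusted p = 0.0668) or KO replicate 3 (0.054).

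The remaining 4 proteases did not pass. Ctsl, cathepsin L, was the most abundant lysosomal protease in CPM and stood at 283, 311 and 300.3 CPM with the KO label, against 293, 309 and 302 CPM in expressing cells, with a log2 fold change of −0.01 (95% interval −0.14 to 0.11). Ctsb, cathepsin B, had 75.8, 90.1 and 79.3 CPM with the KO label, against 76.97, 66.2 and 67.00 CPM in expressing cells, and the groups overlapped through expressing replicate 1 (log2 fold change 0.22, adjusted p = 0.0643). Ctsa, the carboxypeptidase that also shields beta-galactosidase and sialidase 1 in a complex, had a log2 fold change of 0.16 (adjusted p = 0.0971), and Ctsz, cathepsin Z, one of 0.06 (adjusted p = 0.711). Without expressing replicate 1 these values became 0.32 for Ctsb (adjusted p = 2.32e-04), 0.26 for Ctsa (8.92e-05) and 0.22 for Ctsz (0.00319), and all 3 passed as higher. Reads of Ctsb and Ctsa may be mixed with those of genes that share exon bases with them on the other strand. Fdft1 shares 774 bases with Ctsb and averaged 41.8 CPM with the KO label, against 57.6 CPM in expressing cells. Overlaps of Ctsa with Neurl2 and Pltp total 819 bases, and Pltp averaged 18.5 CPM with the KO label, against 22.2 CPM in expressing cells. Nelfcd (63.6 CPM with the KO label and 75.6 CPM in expressing cells) shares only 10 bases with Ctsz.

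**Figure D2:**
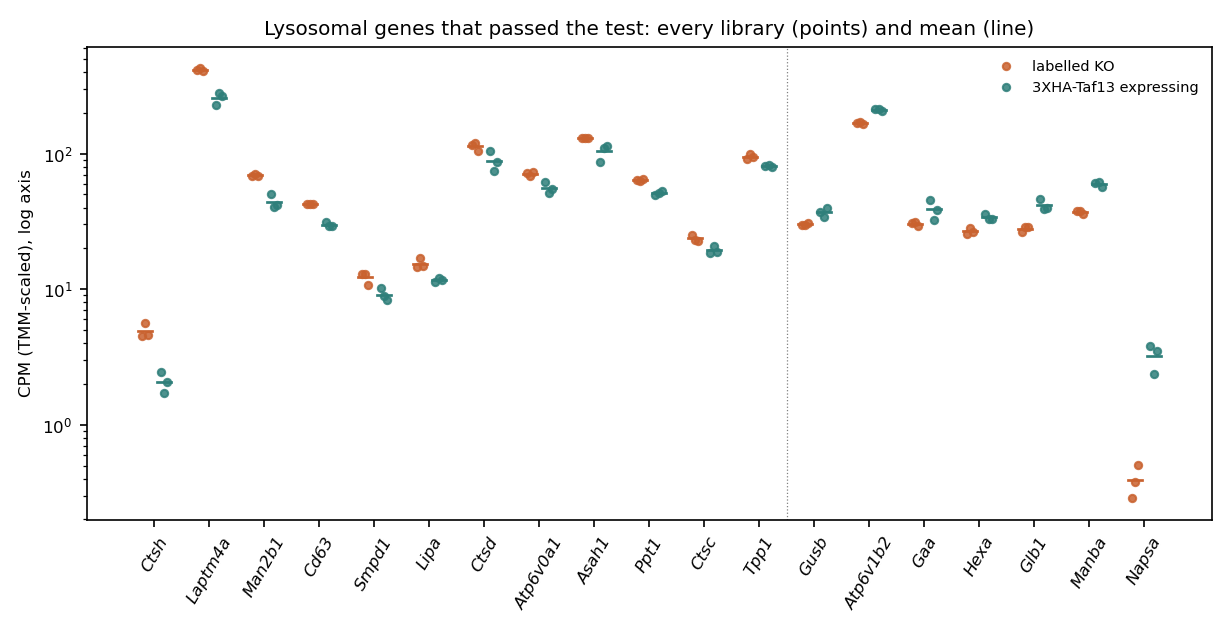
CPM (vertical log axis) in every library of the 19 lysosomal genes that passed the test, as points with a line for the mean of 3 libraries, those labelled KO to the left of those of 3XHA-Taf13 expressing cells. The libraries of the 2 groups stand clear of each other for Ctsh, Napsa, Manba, Man2b1 and Laptm4a, and lie close together for Ctsd and Gaa.

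The glycosidases of glycoproteins and glycolipids were the role with the most genes going down. With the KO label 4 of the 7 were lower, 1 was higher and 2 did not pass, with a median log2 fold change of −0.34, or −0.19 without expressing replicate 1. Manba, beta-mannosidase, which removes the last beta-linked mannose of N-glycans (ENSMUSG00000028164, chr3:135485611-135571404), stood at 37.7, 37.8 and 35.9 CPM in the libraries labelled KO, against 60.8, 61.5 and 56.8 CPM in the 3XHA-Taf13 expressing libraries. Man2b1, the acid alpha-mannosidase that removes the alpha-linked mannoses of the same glycans (ENSMUSG00000005142, chr8:85083270-85098282), stood at 68.2, 70.5 and 68.8 CPM with the KO label, against 49.99, 40.03 and 41.5 CPM in expressing cells. The 2 mannosidases went opposite ways, with no overlap in either. The log2 fold change was −0.69 ± 0.0647 (SE, adjusted p = 5.34e-05) for Manba, or 0.622-fold. It was 0.66 ± 0.0867 (SE, adjusted p = 3.52e-04) for Man2b1, or 1.58-fold. The ratio of Man2b1 to Manba per kilobase of exon was 1.57, 1.62 and 1.66 with the KO label, against 0.714, 0.566 and 0.635 in expressing cells, so that the more abundant of the pair changed places. This ratio was chosen after its values were seen and is not tested.

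Glb1, the beta-galactosidase that starts the breakdown of ganglioside GM1 (ENSMUSG00000045594, chr9:114401076-114474898), had 26.5, 28.5 and 28.7 CPM with the KO label, against 45.98, 38.8 and 39.8 CPM in expressing cells. The groups lay apart, and the log2 fold change of Glb1 was −0.57 ± 0.0835 (SE, adjusted p = 6.41e-04). Tmppe shares exon bases with Glb1 on the same strand and averaged 9.87 CPM with the KO label and 13.2 CPM in expressing cells, so the count of Glb1 is uncertain to that extent. Hexa, the alpha subunit of the beta-hexosaminidase that acts after Glb1 on gangliosides, had 25.5, 28.3 and 26.5 CPM with the KO label, against 36.1, 33.2 and 33.1 CPM in expressing cells. Hexa was lower without overlap as well (log2 fold change −0.35 ± 0.0747 SE, adjusted p = 0.00515). Gaa, the acid alpha-glucosidase that clears glycogen, had 30.5, 31.5 and 29.4 CPM with the KO label, against 45.3, 32.6 and 38.2 CPM in expressing cells, and its lowest expressing library was only slightly above its highest library labelled KO. The log2 fold change of Gaa was −0.34 ± 0.11 (SE, adjusted p = 0.0334), and its call was lost when libraries were scaled by their totals alone (−0.26, adjusted p = 0.125). The call of Gaa was also lost without KO replicate 1 (adjusted p = 0.092), KO replicate 2 (0.0762), KO replicate 3 (0.117) or expressing replicate 3 (0.0907). The change of Gaa shrank to −0.19 without expressing replicate 1 (adjusted p = 0.0154). Gla, alpha-galactosidase A, which acts on globotriaosylceramide (log2 fold change −0.15, adjusted p = 0.174), and the sialidase Neu1 (log2 fold change −0.08, adjusted p = 0.6) did not pass. With the GC trend removed Gla passed as lower (−0.19, adjusted p = 0.0254 in edgeR).

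Of the 6 enzymes that take apart glycosaminoglycans, Gusb was lower and 5 did not pass, with a median log2 fold change of 0.07, or −0.04 without KO replicate 2. Gusb, beta-glucuronidase, had 29.6, 29.9 and 30.97 CPM with the KO label, against 36.9, 34.2 and 39.4 CPM in expressing cells. Its groups did not overlap (log2 fold change −0.29 ± 0.0742 SE, adjusted p = 0.0127). The call of Gusb was lost with library totals alone (−0.20, adjusted p = 0.0683). It was also lost without KO replicate 1 (adjusted p = 0.0575), KO replicate 2 (0.0559) or expressing replicate 3 (0.0801). Sgsh, the sulfamidase of heparan sulfate, averaged 4.61 ± 0.581 CPM with the KO label and 3.46 ± 0.655 CPM in expressing cells (log2 fold change 0.43, adjusted p = 0.0593). Without expressing replicate 1 the value of Sgsh was 0.61 (adjusted p = 7.82e-04), past the threshold. Idua and Ids, which remove iduronate and its sulfate, Naglu, which acts on heparan sulfate, and Arsb, which acts on dermatan sulfate, had log2 fold changes of 0.07, 0.16, 0.07 and 0.06. Dgkq, on the strand opposite to Idua, averaged 25.98 CPM with the KO label and 25.3 CPM in expressing cells, several times the level of Idua itself (3.44 CPM with the KO label and 3.26 CPM in expressing cells).

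Of the 8 genes that act on or carry lipids 4 were higher, none was lower and 4 did not pass, with a median log2 fold change of 0.19. Lipa, the acid lipase that splits cholesteryl esters and triglycerides, had 14.4, 17.1 and 14.7 CPM with the KO label, against 11.2, 12.1 and 11.7 CPM in expressing cells. Ppt1, which removes palmitate from proteins, had 64.2, 62.9 and 64.9 CPM with the KO label, against 49.8, 51.1 and 52.96 CPM in expressing cells. Both genes were higher in every library labelled KO, with log2 fold changes of 0.40 ± 0.0933 (SE, adjusted p = 0.00792) for Lipa and 0.32 ± 0.0593 (SE, adjusted p = 0.0024) for Ppt1. Cap1, on the strand opposite to Ppt1, averaged 378 CPM with the KO label and 327 CPM in expressing cells, and its part in the count of Ppt1 was not tested.

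The sphingolipid enzymes Smpd1 and Asah1, which act one after the other, were both higher. Smpd1, the acid sphingomyelinase that makes ceramide, had 12.9, 12.95 and 10.7 CPM with the KO label, against 10.3, 8.84 and 8.27 CPM in expressing cells. Asah1, the acid ceramidase that splits ceramide, had 131, 130.3 and 130.1 CPM with the KO label, against 87.1, 110.4 and 114 CPM in expressing cells. Neither gene overlapped between groups, and the 3 libraries labelled KO were closely alike for Asah1 while its expressing libraries were spread out. The log2 fold change was 0.42 ± 0.117 (SE, adjusted p = 0.018) for Smpd1 and 0.33 ± 0.0935 (SE, adjusted p = 0.0198) for Asah1. Smpd1 lost its call without KO replicate 1 (adjusted p = 0.0717), KO replicate 2 (0.0742) or expressing replicate 3 (0.0746). Asah1 lost it without KO replicate 1 (0.0656), KO replicate 2 (0.0619) or KO replicate 3 (0.0636). Psap, the precursor of the saposins that present sphingolipids to their hydrolases, was the most abundant gene of the group (156 ± 9.001 CPM with the KO label and 161 ± 15.1 CPM in expressing cells) and had a log2 fold change of −0.04 (95% interval −0.22 to 0.14). Arsa, the sulfatase of sulfatide, had −0.16, and the cholesterol exporters Npc1 and Npc2 had 0.06 and −0.10, none past the threshold.

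Of the 8 membrane proteins, Laptm4a and Cd63 were higher and 6 did not pass, with a median log2 fold change of 0.17. Laptm4a, a protein with several membrane spans found in late endosomes and lysosomes (ENSMUSG00000020585, chr12:8921664-8938742), stood at 415, 424 and 403 CPM in the libraries labelled KO, against 229, 280.2 and 268 CPM in the 3XHA-Taf13 expressing libraries. Every library labelled KO was far above every expressing library, and the log2 fold change of Laptm4a was 0.68 ± 0.0759 (SE, adjusted p = 1.38e-04), or 1.60-fold. Cd63, a tetraspanin of late endosomes and exosomes (ENSMUSG00000025351, chr10:128900989-128912822), had 42.6, 42.7 and 42.5 CPM with the KO label, against 31.1, 29.01 and 29.3 CPM in expressing cells. Its 3 libraries labelled KO were nearly equal and above all expressing libraries (log2 fold change 0.51 ± 0.0648 SE, adjusted p = 2.77e-04).

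Paralogues of the abundant membrane proteins were compared within each library. Laptm4b, which resembles Laptm4a, had 84.7, 85.1 and 81.7 CPM with the KO label, against 67.4, 80.1 and 75.7 CPM in expressing cells and did not pass (log2 fold change 0.17, adjusted p = 0.0866), although its groups did not overlap. Without expressing replicate 1 Laptm4b was at 0.13 (adjusted p = 0.0165), and without expressing replicate 2 at 0.23 (0.0395), past the threshold both times. The ratio of Laptm4b to Laptm4a per kilobase was 0.186, 0.184 and 0.185 with the KO label, against 0.269, 0.261 and 0.259 in expressing cells. The ratio was lower in every library labelled KO and varied little within either group.

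Lamp1 and Lamp2 encode the most abundant glycoproteins of the lysosomal membrane. Lamp1 had 349, 368 and 376 CPM with the KO label, against 338, 356 and 364 CPM in expressing cells, with overlapping groups and a log2 fold change of 0.05 (95% interval −0.08 to 0.17). Lamp2, which also serves chaperone-mediated autophagy, had 68.5, 73.2 and 68.6 CPM with the KO label, against 38.4, 63.3 and 62.5 CPM in expressing cells. Expressing replicate 1 was far below the other expressing libraries for Lamp2, and its log2 fold change of 0.35 did not pass (adjusted p = 0.106). Without that library Lamp2 was at 0.18 and passed (adjusted p = 0.00225), with a smaller difference and a smaller spread. The ratio of Lamp2 to Lamp1 per kilobase was 0.0550, 0.0556 and 0.0511 with the KO label, against 0.0318, 0.0499 and 0.0482 in expressing cells, with no overlap. With 3 libraries against 3 an exact permutation test of such a ratio cannot go below a two-sided p of 0.10, and none was made.

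Mcoln1, the cation channel TRPML1, had 32.3, 32.2 and 31.9 CPM with the KO label, against 30.4, 29.2 and 26.6 CPM in expressing cells and did not pass (log2 fold change 0.16, adjusted p = 0.109), nor did Scarb2, the carrier of glucocerebrosidase (log2 fold change −0.12, adjusted p = 0.238). Without expressing replicate 1 both passed, Mcoln1 as higher at 0.23 (adjusted p = 0.00261) and Scarb2 as lower at −0.15 (0.0137). Gpnmb, a glycoprotein of melanosomes and phagocytes, had 1.43, 1.86 and 1.71 CPM with the KO label, against 3.46, 2.02 and 1.998 CPM in expressing cells. Its groups did not overlap, but expressing replicate 1 was well above the other expressing libraries and the test was not passed (log2 fold change −0.55, adjusted p = 0.0873). Gpnmb passed as lower in edgeR with the GC trend removed (−0.54, adjusted p = 0.0467) and with no filter on low counts (−0.54, 0.0251). Grn, the precursor of the granulins, had 43.8, 45.5 and 39.1 CPM with the KO label, against 53.7, 43.2 and 45.8 CPM in expressing cells, with overlapping groups (log2 fold change −0.15, adjusted p = 0.232).

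**Figure D3:**
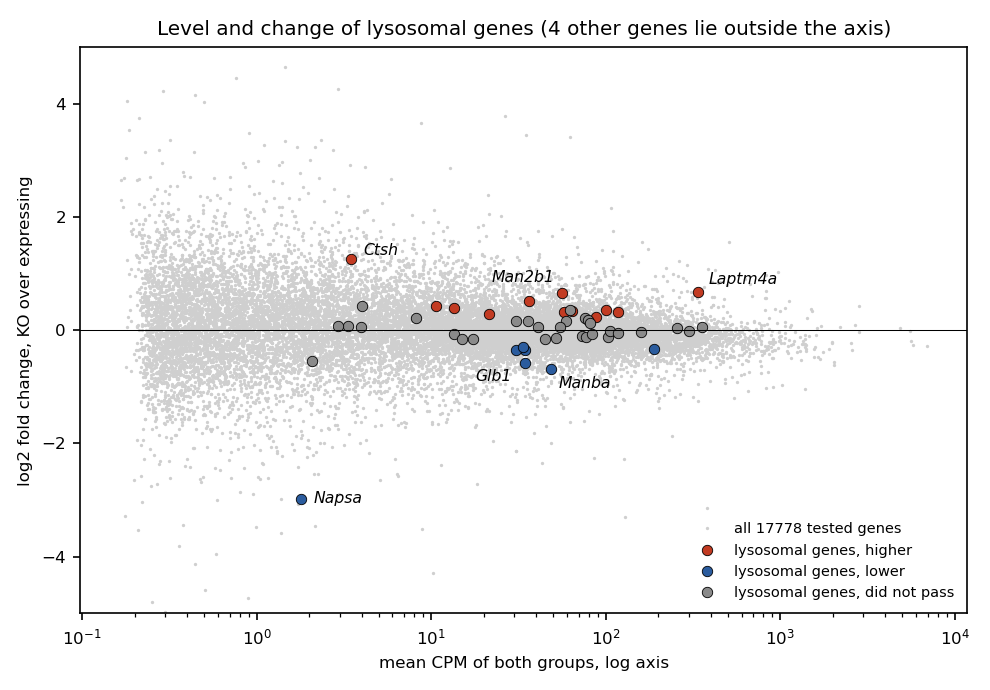
Log2 fold change (vertical axis, libraries labelled KO over expressing libraries) against the mean level (horizontal axis) of the 49 lysosomal genes in colour over all tested genes in grey. Lysosomal genes are mostly abundant genes with small changes, and Napsa and Ctsh, which changed most, lie at the low end of the level axis.

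Per kilobase of merged exons, Laptm4a and Lamp1 had the highest levels of the 49 genes. Merged exons pool all annotated transcripts of a gene and can be longer than its main message. Levels of different genes therefore compare only roughly, and the ranks depend on these lengths. Ctsl, for example, was divided by 6489 merged bases and Laptm4a by 1773. Laptm4a had 228 to 239 CPM per kilobase with the KO label and 129 to 158 in expressing cells. Lamp1 had 130.5 to 140.5 with the KO label and 126 to 136 in expressing cells. The libraries labelled KO therefore put Laptm4a clear of Lamp1, while the ranges of the pair overlapped in expressing cells. Psap came next with 56.9 with the KO label and 58.5 in expressing cells. Ctsd ranked 4 of 49 with the KO label (48.3) and 9 in expressing cells (37.6). Of its 2351 merged bases 808 are shared with Gm49369 on the same strand, which averaged 0 CPM in both groups. The count and rank of Ctsd are uncertain to that extent. Napsa ranked 49 with the KO label (0.146) and 43 in expressing cells (1.21).

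Of the 10 V-ATPase subunits 1 was higher, 1 was lower and 8 did not pass, with a median log2 fold change of −0.03, or 0.06 with library totals alone. Atp6v0a1, a membrane subunit of the V0 sector that lines the path of the protons (ENSMUSG00000019302, chr11:101009452-101063719), had 72.4, 68.7 and 72.7 CPM in the libraries labelled KO, against 62.2, 51.5 and 54.9 CPM in the 3XHA-Taf13 expressing libraries. Atp6v1b2, a subunit of the ATP-binding head of the V1 sector (ENSMUSG00000006273, chr8:69088646-69113711), had 167, 171 and 164 CPM in the libraries labelled KO, against 213, 214 and 206 CPM in the 3XHA-Taf13 expressing libraries. Both stood apart between groups in opposite directions, Atp6v0a1 higher (log2 fold change 0.34 ± 0.0779 SE, adjusted p = 0.0069) and Atp6v1b2 lower (log2 fold change −0.34 ± 0.0525 SE, adjusted p = 9.46e-04). Atp6v1a, the partner of Atp6v1b2 in the head, had a log2 fold change of 0.04 (95% interval −0.11 to 0.19). Per kilobase, Atp6v1a stood at 43.2 with the KO label and 42.0 in expressing cells, and Atp6v1b2 at 31.5 ± 0.598 and 39.8 ± 0.844 (SD, n = 3 each).

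By sector, the 4 V0 genes lay at a median of 0.17 on the log2 scale and summed to 212 to 216 CPM with the KO label, against 188 to 209 CPM in expressing cells. The 6 V1 genes had a median of −0.06 (0.03 with library totals alone) and summed to 830 to 833 CPM with the KO label, against 850 to 905 CPM in expressing cells. On TMM-scaled levels the V0 sum was higher and the V1 sum lower in every library labelled KO, with no test made of either sum. Much of each difference lay in 1 gene. Atp6v0a1 averaged 71.3 CPM with the KO label and 56.2 CPM in expressing cells, and Atp6v1b2 averaged 167 and 211 CPM. The sums also rest on the TMM scaling factors, 1.03 to 1.04 with the KO label and 0.948 to 1.00 in expressing cells. Sums on library totals alone were not compared, and the V1 median turned from −0.06 to 0.03 with that scaling. The lower V1 sum is therefore given for TMM scaling only and is not read as a shift of the sector. Among the V0 genes, Atp6v0b (−0.14) and Atp6v0c (0.22), which build the proton-carrying ring, and Atp6v0d1 (0.13), which joins the ring to the rotor, did not pass. Atp6v0c is uncertain, since its pseudogene Atp6v0c-ps2 is 99.7% identical over 387 bases and was itself counted at 9.10 CPM with the KO label and 8.99 CPM in expressing cells. Among the V1 genes, the rotor shaft Atp6v1d (−0.01), the stalk subunit Atp6v1e1 (−0.05) and the regulatory subunits Atp6v1c1 (−0.12) and Atp6v1h (−0.07) did not pass. Without expressing replicate 1, Atp6v0c (0.29, adjusted p = 0.0243) and Atp6v0d1 (0.18, 0.00121) passed as higher, and Atp6v1c1 (−0.12, 0.0131) and Atp6v1h (−0.11, 0.0424) as lower.

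**Figure D4:**
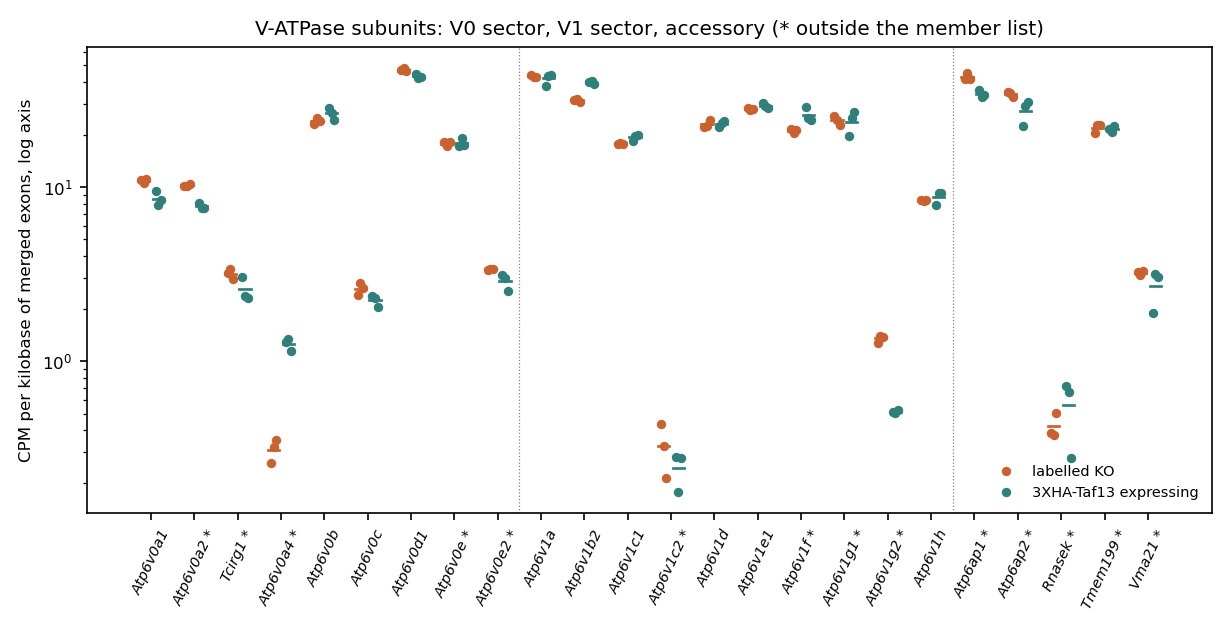
Level per kilobase of merged exons (vertical log axis, CPM per kilobase) of V-ATPase subunits in every library, those labelled KO to the left of the expressing ones, with subunits outside the 49 marked by an asterisk. Most subunits lie at a similar height in both groups. With the KO label Atp6v1b2, Atp6v1f and Atp6v0a4 lie lower, and Atp6v1g2, Atp6v0a1, Atp6v0a2, Atp6ap1 and Atp6ap2 lie higher.

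Of 14 other V-ATPase genes tested, 4 were higher and 2 lower, with a median log2 fold change of 0.23. These became 6 and 2, with a median of 0.15, without expressing replicate 1, and without KO replicate 2 or KO replicate 3 they became 3 and 1. Among the isoforms of subunit a, which place the pump in different membranes, Atp6v0a1 and Atp6v0a2 were higher and Atp6v0a4 was lower. Tcirg1, also an isoform of subunit a, did not pass (log2 fold change 0.31, adjusted p = 0.0636). Atp6v0a2, an isoform of the Golgi and endosomes, averaged 68.8 ± 1.01 CPM with the KO label and 52.1 ± 1.77 CPM in expressing cells (SD, n = 3 each, log2 fold change 0.40 ± 0.0593 SE, adjusted p = 6.92e-04). Atp6v0a4, the isoform of acid-secreting kidney cells, had 1.29, 1.597 and 1.74 CPM with the KO label, against 6.38, 6.62 and 5.69 CPM in expressing cells. Every library labelled KO was far below every expressing library for Atp6v0a4 (log2 fold change −1.997 ± 0.143 SE, adjusted p = 1.21e-05). Of the summed per-kilobase level of the 4 isoforms, Atp6v0a4 made up 1.26% ± 0.187 with the KO label and 6.23% ± 0.613 in expressing cells, and Atp6v0a1 made up 44.2% and 42.5%. Atp6v0a2 made up 41.6% with the KO label and 38.5% in expressing cells, and Tcirg1 13.0% and 12.7%. Atp6v1g2, an isoform of the stalk subunit G typical of neurons, averaged 3.39 ± 0.177 CPM with the KO label and 1.29 ± 0.0227 CPM in expressing cells (log2 fold change 1.39 ± 0.137 SE, adjusted p = 6.61e-05). Atp6v1f averaged 22.3 CPM with the KO label and 27.6 CPM in expressing cells (log2 fold change −0.31, adjusted p = 0.0166).

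Beyond the 49, 7 lists of other lysosome genes held 119 genes, of which 114 were tested, with 25 higher (21.9%) and 24 lower (21.1%) and a median log2 fold change of 0.01. These shares again lay near the 19.2% and 20.8% of all tested genes. Of 31 other hydrolases and activators tested 8 were higher and 3 lower, with a median of 0.14. The count of this list ran from 4 higher and 1 lower without KO replicate 3 (5 and 1 without KO replicate 2, 5 and 2 without expressing replicate 3) to 15 higher and 4 lower without expressing replicate 1. Galns, a sulfatase of keratan sulfate, averaged 11.02 ± 1.13 CPM with the KO label and 6.93 ± 0.711 CPM in expressing cells (log2 fold change 0.67 ± 0.116 SE, adjusted p = 0.00165). Lgmn, the asparagine-specific protease legumain (log2 fold change 0.38, adjusted p = 0.00355), was higher as well. Scpep1, a serine carboxypeptidase, averaged 80.7 ± 1.65 CPM with the KO label and 123 ± 4.27 CPM in expressing cells and was lower (log2 fold change −0.60 ± 0.0569 SE, adjusted p = 5.29e-05).

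Of 25 other membrane proteins and transporters 8 were higher and 4 lower, with a median of −0.01, and without KO replicate 1 or KO replicate 2 there were 5 higher and 3 lower. Slc38a9, the arginine sensor that reports to mTORC1, averaged 57.9 ± 1.93 CPM with the KO label and 39.1 ± 2.95 CPM in expressing cells (log2 fold change 0.56 ± 0.0732 SE, adjusted p = 3.25e-04), and Cd68, a heavily glycosylated protein typical of macrophages, averaged 12.8 ± 1.24 CPM with the KO label and 8.58 ± 0.614 CPM in expressing cells (log2 fold change 0.58 ± 0.105 SE, adjusted p = 0.00207). The nucleoside carrier Slc29a3 (log2 fold change −0.61 ± 0.0794 SE, adjusted p = 3.21e-04) and the lipid phosphatase Pip4p1 (log2 fold change −0.37, adjusted p = 0.00127) were lower. Of 17 genes of mannose 6-phosphate sorting, which tags and carries new hydrolases to the lysosome, 2 were higher and 5 lower, with a median of −0.14. Scaling by library totals alone gave 3 higher and 2 lower, taking out the GC trend gave 3 and 9, and leaving out expressing replicate 1 gave 4 and 7. Without KO replicate 1 or KO replicate 3 there were 1 and 3, and without KO replicate 2 1 and 4. The 2 genes of the enzyme that adds the tag went opposite ways, with the gamma subunit Gnptg higher (16.4 CPM with the KO label and 10.5 CPM in expressing cells, log2 fold change 0.65, adjusted p = 0.00346) and the catalytic Gnptab lower (53.9 ± 1.65 CPM with the KO label and 77.9 ± 2.29 CPM in expressing cells, log2 fold change −0.53, adjusted p = 1.40e-04). The receptor gene M6pr was higher (log2 fold change 0.20, adjusted p = 0.0195), and the adaptor gene Gga1 was lower (log2 fold change −0.48, adjusted p = 0.00329).

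Of 11 genes of the HOPS and CORVET tethers, which bring endosomes and lysosomes together, Vps8 (0.21) and Tgfbrap1 (0.24) were higher and Vps33a (−0.18) was lower. None of the 11 was called with the replicate block, with no filter on low counts, or without KO replicate 1, KO replicate 2, KO replicate 3 or expressing replicate 3. Without expressing replicate 2 there were 0 higher and 3 lower, and without expressing replicate 1 there were 2 and 2. Of 9 genes of the Ragulator and Rag GTPases, which anchor mTORC1 to the lysosome, none was higher (1 with library totals alone) and 4 were lower, Rragb (45.4 CPM with the KO label and 66.5 CPM in expressing cells, log2 fold change −0.55, adjusted p = 0.0014) and Lamtor4 (log2 fold change −0.45, adjusted p = 0.0065) with the smallest p. Of 7 genes of the MiT/TFE factors and the folliculin complex, 5 were lower, among them Tfeb (8.89 ± 0.288 CPM with the KO label and 22.5 ± 4.49 CPM in expressing cells, log2 fold change −1.33, adjusted p = 7.99e-05) and Fnip2 (log2 fold change −0.50, adjusted p = 1.99e-04). Tfec alone was higher (2.795 ± 0.559 CPM with the KO label and 0.113 ± 0.0462 CPM in expressing cells, log2 fold change 4.65, adjusted p = 7.88e-06). The 14 lysosomal genes with a CACGTG in their promoter had 1 gene higher (Ctsd), 2 lower (Glb1 and Gaa) and 11 that did not pass, with a median log2 fold change of 0.04. This count depended on the processing, with 5 higher and 2 lower without expressing replicate 1, 5 and 1 under library totals alone and 5 and 3 after taking out the GC trend. No E-box gene was higher without KO replicate 1, KO replicate 2, expressing replicate 2 or expressing replicate 3. In these fits Ctsd lost its call but kept log2 fold changes of 0.34, 0.33, 0.25 and 0.35, in that order. No background share is set beside them. Lamp1, with 4 copies of the motif in the sequence given above, had a log2 fold change of 0.05. Among the 40 genes whose promoter was used, 10 were higher, 5 were lower and 25 did not pass.

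**Figure D5:**
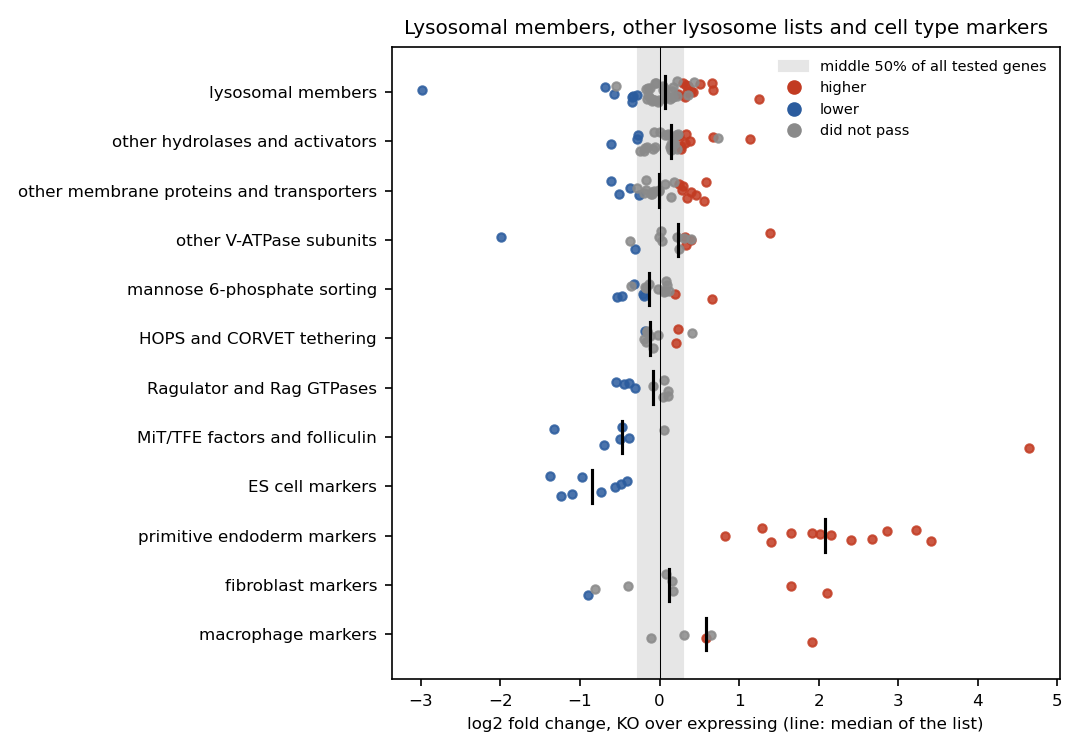
Log2 fold change (horizontal axis, libraries labelled KO over expressing libraries) of every tested gene of the 49, of the 7 other lysosome lists and of 4 marker lists, with a vertical line for the median of each list and grey shading for the middle 50% of all tested genes. The medians of the lysosome lists run from −0.14 to 0.23 apart from the MiT/TFE list (median −0.47). ES cell markers lie to the left (median −0.85) and primitive endoderm markers to the right (median 2.08).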

How the data were processed

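Poly(A) RNA of 6 libraries (3 labelled KO, 3 labelled 3XHA-Taf13 expressing) was sequenced, per the labels' protocols from 800 ng of total RNA with a strand-marking kit and 12 PCR cycles. The deposited table holds raw read counts per gene. The tools listed in the submitters' processing notes are HTSeq 0.6.1p1, STAR 2.5.3a, bcl2fastq 2.20.0.422 and cutadapt 1.10, and the build is mm10. Neither the strand option nor the gene annotation behind the counts is stated, so overlapping genes may share reads.

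Counts were fitted with edgeR 4.0.16 in R 4.3.3 (TMM scaling, filterByExpr with a minimum count of 10 and a minimum total of 15, robust quasi-likelihood test), with p-values adjusted by Benjamini-Hochberg over all 17778 tested genes and a threshold of 0.05. CPM were computed on TMM-scaled library sizes, and levels per kilobase on merged exons of GENCODE M21 (the same build). The code was tested on simulated data with 200 changed genes. Alternatives were DESeq2 1.42.0 and its size factors, library totals, other filters, a replicate block, removal of a GC trend and leaving out each library. Replicates are separate dishes that may share a starting culture, and p-values measure only their spread. Intervals and floors cover counting and dish-to-dish error, not PCR duplicates, and the common biological coefficient of variation was 9.05%. Same-numbered libraries did not deviate together, so the numbers were not used as pairs. Identifiers with no gene name held at most 0.00465% of the counts.

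The members and all lists were chosen with earlier results of these data known, so the lists are not independent evidence. Values in every library are given for the called members with the smallest p, at most 12 in each direction, for the Lamp and Laptm4 pairs, and for Grn, Napsa and Gpnmb, and further members were added after their values were seen. Of each other lysosome list, the 2 called genes with the smallest p in each direction are named, except 1 that is not reported here. Promoter sequences are RefSeq's, and no sequence is given for the 9 members without an entry used here. Chromosome 18, which holds Npc1, was left out of the search of members but not out of that of all genes.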

Additional observations from a re-analysis of the deposited data

How the results depend on the processing

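Of the 19 lysosomal genes called, 12 were called in all 13 alternatives (Atp6v0a1, Atp6v1b2, Cd63, Ctsh, Glb1, Hexa, Laptm4a, Lipa, Man2b1, Manba, Napsa and Ppt1), and the other 7 were lost in some, as given beside them. The number higher was 19 with library totals and 20 with the GC trend removed, and the number lower was 11 with the GC trend removed, against 12 and 7. Leaving out 1 library at a time gave 8 to 21 genes higher and 5 to 10 lower, with both upper ends reached without expressing replicate 1. Over the 114 other lysosome genes it gave 15 to 37 higher and 16 to 29 lower. Without expressing replicate 1 the shares over all genes rose as well, to 26.2% higher and 24.7% lower, against 19.2% and 20.8%. For the other leave-one-out counts no background share of all genes is set beside them. The ranges are therefore not read as particular to lysosomal genes. With the replicate number as a block, 13 were higher and 7 lower, with Lamp2 gained (0.39, adjusted p = 0.0442 in edgeR). Correlations of same-numbered libraries' deviations were 0.03, −0.07 and 0.08, so the numbers do not pair the libraries.

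No called gene changed its sign in any alternative. Genes close to 0 did. With library totals Ctsl became 0.076, Neu1 0.012, Psap 0.048, Atp6v1d 0.079, Atp6v1e1 0.035 and Atp6v1h 0.027. With DESeq2's size factors and with DESeq2 itself Atp6v1d became 0.0015, and with the GC trend removed Psap became 0.012 and Atp6v1a −0.019. Leave-one-out ranges that crossed 0 were −0.045 to 0.021 for Ctsl, −0.051 to 0.0195 for Atp6v1d, −0.104 to 0.19 for Idua, −0.013 to 0.21 for Naglu, −0.074 to 0.17 for Arsb, −0.097 to 0.065 for Psap, −0.17 to 0.056 for Neu1, −0.068 to 6.2e-05 for Atp6v1e1 and −0.057 to 0.22 for Ctsz. The causes were not tested. Depth limits Napsa most, with 10 reads in its smallest library.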

Other observations

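The genes of this paragraph, from the V-ATPase list and the other hydrolases, were chosen after their values were seen. Atp6v1b1, of acid-secreting kidney cells, and Atp6v1g3 had 0 counts in all 6 libraries, which allows levels of up to between 0.0581 and 0.0961 CPM. Atp6v0d2, an isoform known from osteoclasts and macrophages, had 0 counts in each library labelled KO, against 4, 3 and 2 counts in expressing cells, too few to test. Ctss, cathepsin S of antigen-presenting cells, had 1, 1 and 3 counts with the KO label, against 0, 2 and 2 counts in expressing cells. Ctsk, the collagen-degrading protease of osteoclasts, averaged 0.707 ± 0.177 CPM with the KO label and 0.723 ± 0.267 CPM in expressing cells (SD, n = 3 each). Ctso, cathepsin O, averaged 2.84 ± 0.506 CPM with the KO label and 1.27 ± 0.458 CPM in expressing cells, with no overlap (log2 fold change 1.14, adjusted p = 0.00573 in edgeR).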
